A study of Mus musculus with 12 samples.

Results

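The genes described here are 32 genes of the unfolded protein response of the mouse, the programme that sensors of the endoplasmic reticulum (ER) run when unfolded proteins accumulate in it. The list names sensors, chaperones, degradation factors and downstream targets, and their rows were taken by gene symbol from a table of 22915 genes. All 32 were found, and 31 of them reached a normalised count of 10 in at least 3 of 12 libraries and were tested among 13184 genes. The 32nd, Derl3, reached that value in only 2 libraries. Primary cardiomyocytes of adult male C57/Bl6 mice, 12 weeks of age, were cultured for 24 h under normoxia with PBS as the control, with murine leukemia inhibitory factor (mLIF), with murine oncostatin M (mOSM) or with hlOSM, a murine OSM carrying the AB loop of human OSM, each at 25 ng/ml by the sample labels. mLIF signals through the LIF receptor (LIFR), mOSM through the OSM receptor (OSMR) and hlOSM through both. Each of the 4 conditions had 3 libraries of total RNA. The labels name no genetic change in any group. Whether the libraries of a condition came from separate animals is not stated, so p-values measure only the spread between these libraries.

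In the unfolded protein response, the luminal chaperone BiP, product of Hspa5, is bound to the sensors IRE1 (Ern1), PERK (Eif2ak3) and ATF6 and leaves them when unfolded proteins accumulate. IRE1 then splices the mRNA of Xbp1, ATF6 is cut in the Golgi to free a transcription factor, and PERK phosphorylates eIF2alpha, which slows translation in general while favouring that of Atf4. XBP1 and ATF6 raise chaperones and the machinery of ER-associated degradation (ERAD), whereas ATF4 raises amino acid supply genes and, under lasting stress, Ddit3 (CHOP), Trib3 and Chac1. Cardiomyocytes use the ER and the continuous sarcoplasmic reticulum for calcium storage, and calreticulin and GRP94 are among its calcium-binding proteins. Sensors are regulated largely through splicing, cleavage and phosphorylation, none of which a gene-level count of mRNA measures.

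The libraries held 2745748 to 2911891 normalised counts each. The 10 cardiomyocyte markers summed to 48748 to 50649 under PBS, 42284 to 44163 under mLIF, 34337 to 38551 under mOSM and 35182 to 37655 under hlOSM, so they were present in every library and lower with each cytokine. The 6 smooth muscle and pericyte markers summed to 615 to 826 with PBS and 314 to 386 with either OSM, the 6 endothelial markers to 1072 to 1148 with PBS and 1325 to 1538 with either OSM. The 8 fibroblast markers summed to 2110 to 2885, but this sum joins opposite movements: 3 were higher and 5 lower with hlOSM, and the median of Col3a1 was 394 with PBS and 848 with hlOSM, that of Dcn 222 and 427, that of Col1a2 448 and 239 and that of Pdgfra 609 and 416. The 6 leukocyte markers analysed summed to 299 to 313 with PBS, 278 to 313 with mLIF, 337 to 380 with mOSM and 310 to 381 with hlOSM. Here too opposite movements were joined. The median of Cd68 was 60 with PBS, 125 with mOSM and 118 with hlOSM, and that of Lyz2 181, 157 and 140. The part of these shifts in the results was not tested. In such bulk libraries, fewer cells of a type and less RNA per cell cannot be told apart.

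Promoters carry the DNA elements through which these genes are read by the response, and a few are shown because they mark which members share an element. A RefSeq promoter (GRCm38.p6, 250 bases before to 50 after the start) was matched for 28 members; Hyou1, Atf6, Derl1 and Manf were not matched. The ER stress response element (ERSE), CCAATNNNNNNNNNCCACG on either strand, was found in 9 of the 28 promoters (32.1%), those of Calr, Canx, Creld2, Derl3, Dnajc3, Hsp90b1, Hspa5, Pdia6 and Syvn1, against 39 of 32851 promoters in all (0.119%). Counted by gene as for the members, an ERSE was found in 15 of 9763 tested genes with a promoter (0.154%, members included). ERSE-II, ATTGGNCCACG, was found in Dnajb11 and Herpud1, and in 0.0365% of all promoters. The sites below are written on the strand of the gene with 6 bases on each side and the fixed letters in capitals. An ERSE in the reverse orientation reads CGTGG, any 9 bases, ATTGG.
Hspa5: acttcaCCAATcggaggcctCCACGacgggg
Hsp90b1, nearer site: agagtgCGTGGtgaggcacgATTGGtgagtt
Hsp90b1, farther site: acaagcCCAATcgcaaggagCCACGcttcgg
Canx: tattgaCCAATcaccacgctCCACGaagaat
Syvn1: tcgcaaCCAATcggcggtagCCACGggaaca
Herpud1: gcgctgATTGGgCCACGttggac
Dnajb11: gcggcgATTGGcCCACGcctggc
The Hspa5 site lay at chr2:34772019-34772049 on the plus strand and began 65 bases before the start. The Hsp90b1 sites lay at chr10:86705527-86705557 and chr10:86705632-86705662 on the minus strand, and Hsp90b1 was the only matched member with a pair of ERSEs. The Canx site lay at chr11:50325794-50325824 on the minus strand, the Syvn1 site at chr19:6046526-6046556, the Herpud1 site at chr8:94386371-94386393 and the Dnajb11 site at chr16:22857846-22857868, these last 3 on the plus strand. The ATF4 element TTGCATCA was found in Chac1 and Herpud1 and in 0.895% of all promoters, the core TGACGTG in Hspa5 alone and in 2.01%, and the STAT element TTCNNNGAA in Eif2ak3 alone and in 8.3%. ERSE and ERSE-II share the letters of their CCAAT and CCACG boxes, and none of these motifs was counted for another. Each motif was searched only as the letters given, so variants of it were not counted. A match describes letters in a window and is not evidence of binding.

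The whole promoters of Syvn1 and Xbp1, members that were higher with both OSMs, are given for comparison, with matches in capitals. The Syvn1 window was chr19:6046326-6046625 on the plus strand and held an ERSE; the Xbp1 window was chr11:5520391-5520690 on the plus strand and held none of the motifs searched.
Syvn1: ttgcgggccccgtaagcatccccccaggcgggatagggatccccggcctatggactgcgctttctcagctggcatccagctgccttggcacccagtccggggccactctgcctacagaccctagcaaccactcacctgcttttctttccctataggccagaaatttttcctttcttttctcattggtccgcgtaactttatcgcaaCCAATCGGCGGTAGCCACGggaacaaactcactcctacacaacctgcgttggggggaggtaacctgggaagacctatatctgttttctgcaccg
Xbp1: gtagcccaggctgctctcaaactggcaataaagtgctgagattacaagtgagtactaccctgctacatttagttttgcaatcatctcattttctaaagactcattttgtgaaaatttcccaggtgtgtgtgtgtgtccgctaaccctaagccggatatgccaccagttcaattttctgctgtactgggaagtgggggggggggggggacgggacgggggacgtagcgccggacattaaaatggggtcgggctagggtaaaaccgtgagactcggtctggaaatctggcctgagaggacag

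Per kilobase of exon, the calcium-binding and folding chaperones had the highest PBS levels of the list. Hsp90b1 (GRP94, an ER chaperone of the HSP90 family) stood at 329 normalised counts per kb, Hspa5 at 317, Canx at 298 and Calr at 280. Of the transcription factors, Atf4 stood at 251 per kb, Atf6 at 134 and Xbp1 at 65.9, and of the sensor kinases Ern1 stood at 43.0 and Eif2ak3 at 16.9. The lowest levels per kb were those of Sec61b (9.18) and Derl3 (1.84). With each cytokine Hspa5 ranked 1st and Hsp90b1 2nd, the reverse of PBS, but their levels per kb were close in every condition. Hspa5 and Hsp90b1 stood at 317 and 329 with PBS (SD 6.72 and 15.1) and 289 and 287 with mLIF (SD 13.2 and 16.6). They stood at 296 and 289 with mOSM (SD 30.4 and 33.7) and 300 and 293 with hlOSM (SD 3.81 and 9.02). Xbp1 was at rank 16 with PBS and mLIF and at rank 13 with either OSM. Trib3 was at rank 24 with PBS, 26 with mLIF, 28 with mOSM and 29 with hlOSM.

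**Figure D1:**
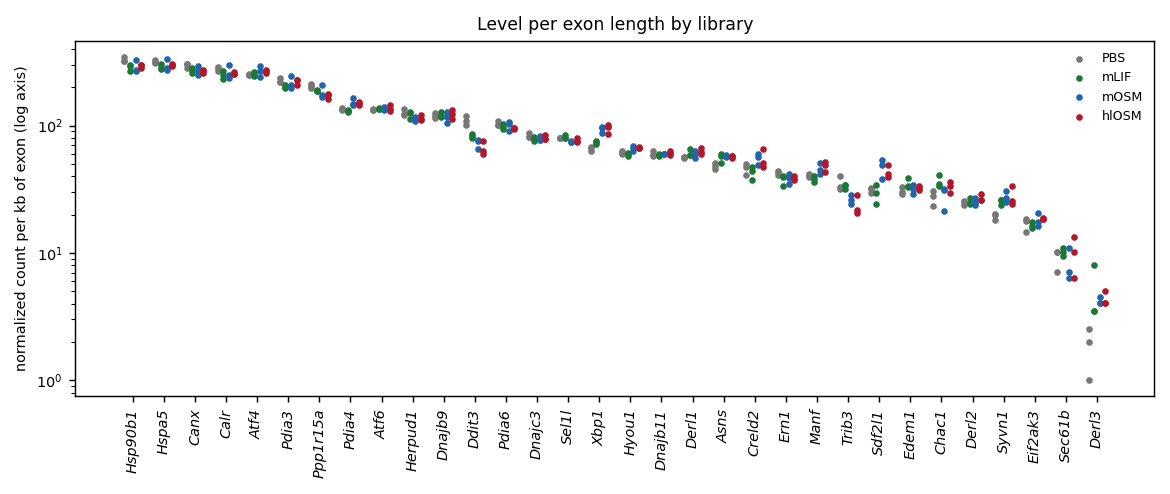
Normalised count per kb of exon (log axis) of the 32 genes in each of the 12 libraries, ordered by the PBS mean and coloured by condition. Hsp90b1 is at 329 per kb and Derl3 at 1.84 per kb in the PBS mean, and the colours overlap for most genes.

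Most of the 31 tested genes differed little from PBS. With mLIF, 1 member was higher (3.23%, against 5.47% of all genes tested) and 1 was lower (3.23%, against 4.44%). With mOSM, 5 were higher (16.1%, against 15.4% of all genes) and 3 were lower (9.68%, against 15.8%). With hlOSM, 5 were higher (16.1%, against 18.2%) and 4 were lower (12.9%, against 19.8%). These shares were near or below those of all genes, so the counts alone set the list apart in neither direction. The median absolute log2 fold change of the members was 0.10 under mLIF, 0.10 under mOSM and 0.14 under hlOSM, beside 0.14, 0.19 and 0.22 for all genes, and 28, 24 and 24 of the 31 lay within 0.25 of 0. The signed medians were -0.05, -0.0038 and 0.04, beside 0.00037, -0.0043 and -0.0052 for all genes. The 3 comparisons share the PBS libraries. Changes of at least 1.5-fold were limited to Ddit3 with mOSM and hlOSM among these.

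**Figure D2:**
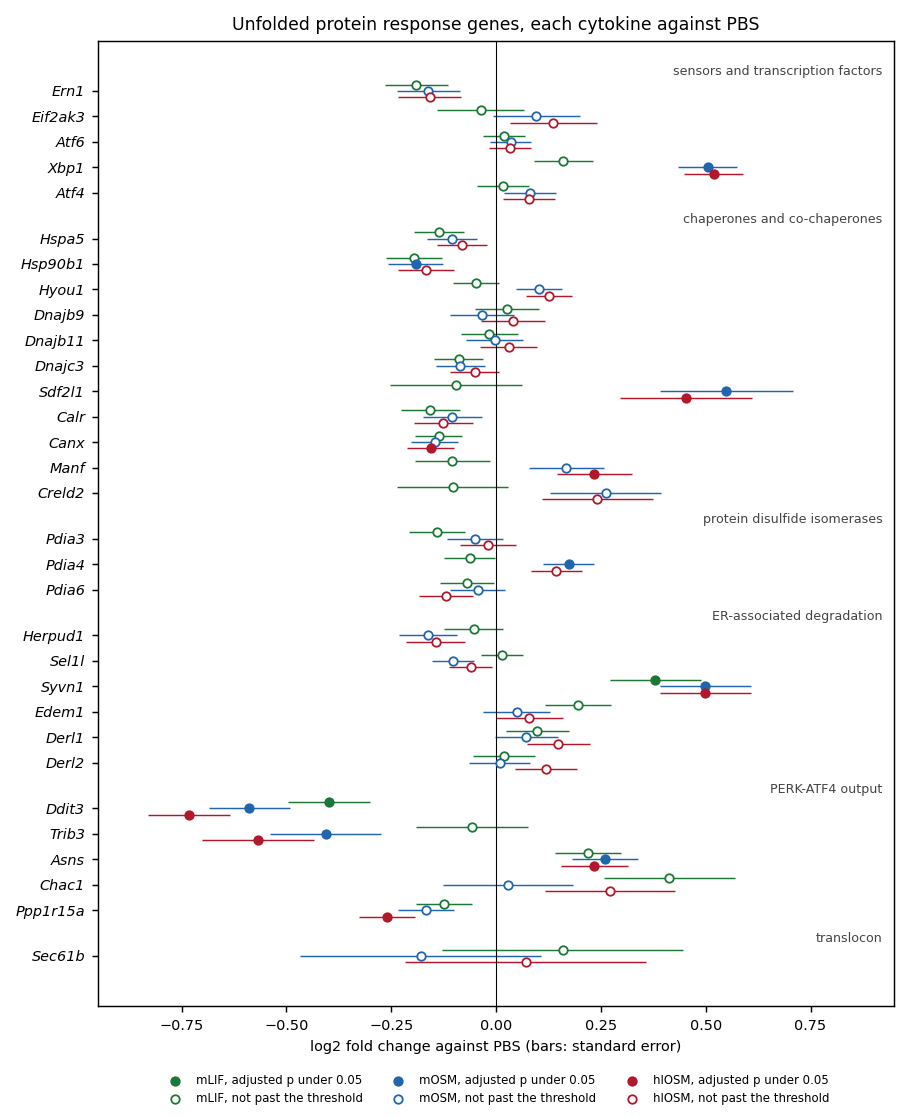
Log2 fold change against PBS (x axis, bars are standard errors) of the 31 tested genes by role, for mLIF, mOSM and hlOSM; filled points passed an adjusted p of 0.05. Most points lie within 0.25 of 0, with Xbp1, Syvn1 and Sdf2l1 to the right and Ddit3 and Trib3 to the left.

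Among the sensors and transcription factors, Xbp1 was the member that moved. Xbp1, at chr11:5520659-5525893 in GRCm38, encodes the factor made from the mRNA that IRE1 splices. Its normalised counts were 216, 220 and 206 under PBS, 240, 231 and 247 under mLIF, 283, 319 and 311 under mOSM and 314, 281 and 328 under hlOSM. All OSM libraries lay above all mLIF libraries, and these above all PBS libraries. Xbp1 rose 1.42-fold with mOSM (log2 fold change 0.50, SE 0.07, adjusted p = 8.80e-06 in limma) and 1.43-fold with hlOSM (0.52, SE 0.07, adjusted p = 4.44e-06). With mLIF the log2 fold change was 0.16 (SE 0.07, adjusted p = 0.155), short of the threshold. Spliced and unspliced Xbp1 are not separated in these counts.

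The other 4 genes of this group did not pass the test with any cytokine. Atf6 had log2 fold changes of 0.02 under mLIF, 0.03 under mOSM and 0.03 under hlOSM, with 95% intervals from -0.08 to 0.14. Atf4, the factor translated when eIF2alpha is phosphorylated, had 0.02, 0.08 and 0.08, and none passed the threshold. Its counts were 604, 587 and 587 under PBS, 622, 596 and 581 under mLIF, 571, 627 and 688 under mOSM and 628, 606 and 644 under hlOSM, so the hlOSM libraries lay above the PBS libraries while mLIF and mOSM overlapped PBS. Only the mRNA of Atf4 was measured. Ern1 had 337, 355 and 362 with PBS and 274 to 340 with the cytokines, with log2 fold changes of -0.19, -0.16 and -0.16 and adjusted p values of 0.112, 0.109 and 0.102. Eif2ak3 had 88 to 123 in all libraries and log2 fold changes of -0.04, 0.10 and 0.14. Eif2ak3 shares 8.05% of its exonic bases with a gene on the other strand. After quantile normalization Atf6 passed the threshold with mOSM and hlOSM (adjusted p = 0.0303 and 0.0304).

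The abundant chaperones stayed close to PBS, and those that moved at the threshold were lower. Hspa5, at chr2:34771970-34777547, had 1333, 1318 and 1373 under PBS, 1280, 1213 and 1169 under mLIF, 1153, 1204 and 1397 under mOSM and 1269, 1282 and 1250 under hlOSM. Every mLIF and hlOSM library of Hspa5 lay below every PBS library, while mOSM spanned the PBS range. Its log2 fold changes were -0.14, -0.10 and -0.08, with adjusted p values of 0.151, 0.193 and 0.295. The 95% intervals were -0.26 to -0.01 under mLIF, -0.23 to 0.02 under mOSM and -0.21 to 0.04 under hlOSM, so none of them held a rise of 0.05 or more on the log2 scale. Hsp90b1 had 1284, 1296 and 1395 under PBS, 1209, 1180 and 1081 under mLIF, 1080, 1091 and 1321 under mOSM and 1205, 1196 and 1138 under hlOSM. Its mLIF and hlOSM libraries lay below PBS and 1 mOSM library overlapped PBS. Hsp90b1 fell by 0.19 on the log2 scale with mOSM (SE 0.07, adjusted p = 0.0309). That call was lost without filtering of low values (adjusted p = 0.0501), after quantile normalization (0.103), with only the compared libraries in the fit (0.0513) and without PBS replicate 3 (0.135), mOSM replicate 1 (0.154) or mOSM replicate 2 (0.140). Hsp90b1 did not pass with mLIF (-0.20, adjusted p = 0.0616 in limma) or hlOSM (-0.17, adjusted p = 0.0515). Of its exonic bases, 10.3% lie in a gene of the opposite strand and 5.38% in other genes of its own strand.

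The lectin chaperones calreticulin and calnexin, which hold newly made glycoproteins, followed the same range. Canx had 1435, 1328 and 1431 under PBS, 1317, 1273 and 1223 under mLIF, 1173, 1253 and 1369 under mOSM and 1224, 1267 and 1271 under hlOSM, and the mLIF and hlOSM libraries all lay below PBS. It fell by 0.16 with hlOSM (SE 0.06, adjusted p = 0.0323), a call lost without filtering (0.0528), after quantile normalization (0.107), and without PBS replicate 1 (0.112), PBS replicate 3 (0.105), hlOSM replicate 1 (0.0987) or hlOSM replicate 2 (0.0596). Calr, at 775 to 826 with PBS and 671 to 859 with the cytokines, had log2 fold changes of -0.16, -0.10 and -0.13, none past the threshold.

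The smaller co-chaperones included the members of this group that were higher. Sdf2l1, at chr16:17130138-17132383, encodes a luminal partner of BiP and its J proteins and had 36, 33 and 35 under PBS, 38, 33 and 27 under mLIF, 42, 54 and 59 under mOSM and 46, 44 and 54 under hlOSM. The OSM libraries all lay above the PBS and mLIF libraries, at counts among the lowest of the list. Sdf2l1 rose 1.46-fold with mOSM (log2 fold change 0.55, SE 0.16, adjusted p = 0.0103) and 1.37-fold with hlOSM (0.45, SE 0.16, adjusted p = 0.0271). The mOSM call was lost without mOSM replicate 3 (adjusted p = 0.0551), and the hlOSM call without PBS replicate 2 (0.0777), PBS replicate 3 (0.0526) or hlOSM replicate 3 (0.120). Manf, a secreted ER-resident factor, had 140, 147 and 143 under PBS, 133, 141 and 126 under mLIF, 147, 158 and 180 under mOSM and 183, 151 and 174 under hlOSM, with no overlap between hlOSM and PBS. It rose 1.18-fold with hlOSM (0.23, SE 0.09, adjusted p = 0.0429), a call lost without filtering (0.0612), after quantile normalization (0.0720), and without any of PBS replicates 1, 2 and 3 (0.107, 0.0634 and 0.0830) or hlOSM replicates 1 and 3 (0.183 and 0.112). With mOSM, Manf had a log2 fold change of 0.17 (adjusted p = 0.164). On the other strand, 8.85% of the exonic bases of Manf are shared with Dcaf1 and 4930524O07Rik.

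Creld2, another ER factor of the ATF6 targets, had log2 fold changes of -0.10, 0.26 and 0.24, with SE of 0.13 and adjusted p values of 0.665, 0.142 and 0.160. Hyou1 (GRP170, a nucleotide exchange factor of BiP) had -0.05, 0.10 and 0.13, with adjusted p = 0.0744 for hlOSM. After trimmed-mean rescaling or quantile normalization Hyou1 passed with hlOSM (adjusted p = 0.0376 and 0.0149). The J proteins Dnajb9, Dnajb11 and Dnajc3, which bring substrates to BiP, lay between -0.09 and 0.04 in all 3 comparisons, and none passed.

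The protein disulfide isomerases form and rearrange disulfide bonds in the ER. Pdia4 had 332, 318 and 324 under PBS, 317, 310 and 305 under mLIF, 349, 357 and 394 under mOSM and 349, 359 and 368 under hlOSM, and every OSM library lay above every PBS library. It rose 1.13-fold with mOSM (log2 fold change 0.17, SE 0.06, adjusted p = 0.0333), while hlOSM gave 0.14 (SE 0.06, adjusted p = 0.0677). The mOSM call was lost without filtering (0.0521), with only the compared libraries (0.0699), and without PBS replicates 1, 2 or 3 (0.0508, 0.101 and 0.0737) or mOSM replicate 3 (0.130), and the hlOSM value passed after trimmed-mean rescaling (0.0451) or quantile normalization (0.0243). Pdia3, which works with calreticulin and calnexin, and Pdia6 lay between -0.14 and -0.02 against PBS and did not pass.

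In ERAD, the ubiquitin ligase gene Syvn1 (HRD1) was the member that moved. Syvn1, at chr19:6046576-6053712, had 98, 88 and 97 under PBS, 126, 127 and 116 under mLIF, 130, 149 and 123 under mOSM and 124, 118 and 163 under hlOSM. All 9 cytokine libraries lay above the PBS libraries. Syvn1 rose 1.41-fold with mOSM (log2 fold change 0.50, SE 0.11, adjusted p = 0.00116) and 1.41-fold with hlOSM (0.50, SE 0.11, adjusted p = 0.000905), and 1.30-fold with mLIF (0.38, SE 0.11, adjusted p = 0.0284). The mLIF call was lost in 5 of the 6 fits that left out a library, with adjusted p values from 0.0582 without mLIF replicate 3 to 0.101 without PBS replicate 2. Sel1l, the adaptor of HRD1, did not follow it, with log2 fold changes of 0.01, -0.10 and -0.06, none past the threshold. Herpud1, which gathers HRD1 complexes, had -0.05, -0.16 and -0.14 (adjusted p = 0.669, 0.0821 and 0.108). Edem1, a lectin that passes glycoproteins to degradation, had 0.20, 0.05 and 0.08. Derl1 and Derl2, membrane proteins of the retrotranslocation machinery, lay between 0.01 and 0.15, and none passed. Derl3 was at 4, 2 and 5 under PBS, 7, 16 and 7 under mLIF, 8, 8 and 9 under mOSM and 10, 8 and 8 under hlOSM, all cytokine libraries above PBS, and was left out of the test by the filter on low values. Without that filter Derl3 passed with mOSM (log2 fold change 1.06, SE 0.36, adjusted p = 0.0475) and hlOSM (1.10, SE 0.36, adjusted p = 0.0322) and missed the threshold with mLIF (1.20, SE 0.36, adjusted p = 0.0614).

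Of the 5 outputs of PERK and ATF4, 3 fell with hlOSM and 1 rose, where 19.8% and 18.2% of all genes did; with so few genes these counts are a description. Ddit3 (CHOP, a transcription factor linked to apoptosis under lasting stress), at chr10:127290774-127296288, had 174, 186 and 205 under PBS, 143, 137 and 147 under mLIF, 112, 130 and 133 under mOSM and 130, 108 and 102 under hlOSM. No cytokine library reached a PBS library, and every OSM library lay below every mLIF library. Ddit3 fell by 0.40 on the log2 scale under mLIF (SE 0.10, adjusted p = 0.0115), by 0.59 under mOSM (SE 0.10, adjusted p = 6.43e-05) and by 0.73 under hlOSM (SE 0.10, adjusted p = 3.05e-06). Without PBS replicate 3 the mLIF call was lost (adjusted p = 0.0698). Ddit3 shares 6.13% of its exonic bases with a separate annotation entry of the same name on its strand and 4.73% with Gm4189 and Mars on the other.

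Trib3, at chr2:152337422-152344032, encodes a pseudokinase induced by CHOP and ATF4 and had 67, 70 and 86 under PBS, 68, 73 and 72 under mLIF, 51, 61 and 55 under mOSM and 60, 44 and 46 under hlOSM. The OSM libraries all lay below the PBS and mLIF libraries. It fell by 0.41 with mOSM (SE 0.13, adjusted p = 0.0226) and by 0.57 with hlOSM (SE 0.13, adjusted p = 0.00176), and had -0.06 with mLIF. The mOSM call was lost without PBS replicate 3 (adjusted p = 0.137) or mOSM replicate 1 (0.0949). Ppp1r15a (GADD34, which directs dephosphorylation of eIF2alpha) had 617, 584 and 605 with PBS, 544, 560 and 552 with mLIF and 522, 509 and 476 with hlOSM. These 3 conditions did not overlap, and Ppp1r15a fell by 0.26 with hlOSM (SE 0.07, adjusted p = 0.00362). With mOSM it had 493, 512 and 610 and a log2 fold change of -0.17 (adjusted p = 0.0612); without mOSM replicate 3 this was -0.26 and passed (adjusted p = 0.00131).

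Asns and Chac1 did not follow these 3. Asns, asparagine synthetase and an ATF4 target, had 125, 138 and 132 under PBS, 158, 140 and 163 under mLIF, 160, 155 and 158 under mOSM and 151, 157 and 157 under hlOSM. Every cytokine library lay above every PBS library, and Asns rose 1.20-fold with mOSM (log2 fold change 0.26, SE 0.08, adjusted p = 0.0150) and 1.18-fold with hlOSM (0.23, SE 0.08, adjusted p = 0.0228), with 0.22 (adjusted p = 0.0795) for mLIF. The mOSM call was lost without PBS replicate 1 (0.0708), and the hlOSM call without PBS replicate 1 (0.0955), hlOSM replicate 2 (0.0618) or hlOSM replicate 3 (0.0544). Chac1, which degrades glutathione, had 38 to 50 with PBS and 55 to 67 with mLIF, with log2 fold changes of 0.41, 0.03 and 0.27 and adjusted p values of 0.0943, 0.912 and 0.177. Sec61b, a subunit of the translocon through which proteins enter the ER, had 8 to 17 counts in all libraries, and its log2 fold changes of 0.16, -0.18 and 0.07 had an SE of 0.29.

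**Figure D3:**
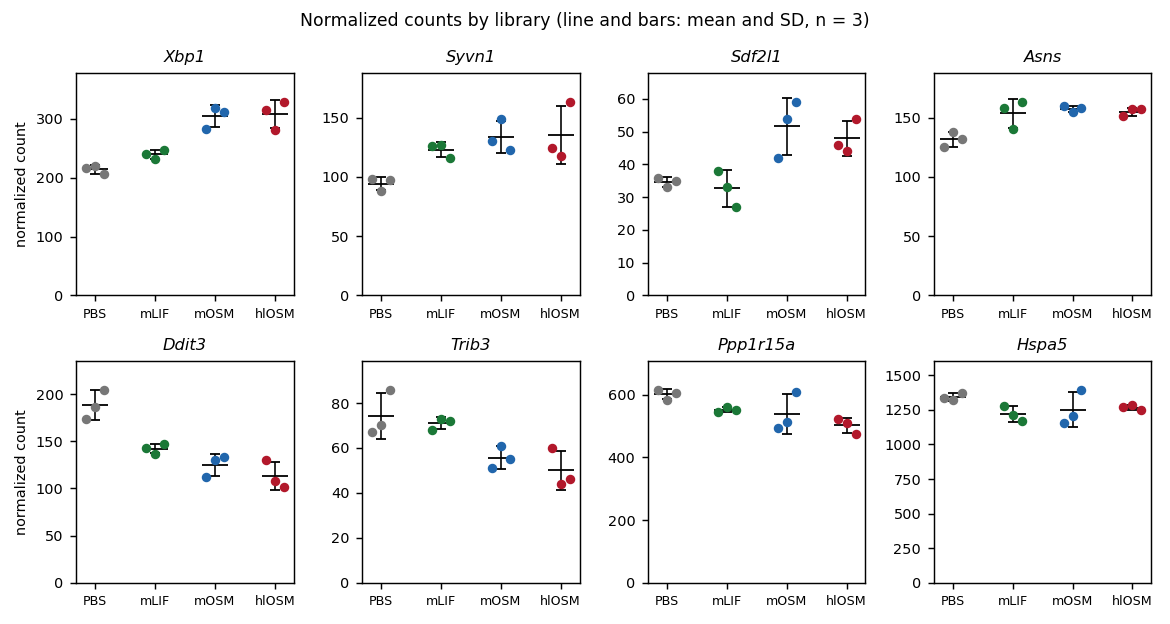
Normalised counts (y axis, from 0) of 8 genes in each of the 12 libraries, with the mean and SD of 3 libraries as lines. Xbp1, Sdf2l1 and Asns sit above PBS in all mOSM and hlOSM libraries, Ddit3 and Trib3 below PBS in all of them, and Hspa5 at 1153 to 1397 throughout.

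Members with an ERSE did not have the higher medians. The 8 tested members with an ERSE had median log2 fold changes of -0.12 under mLIF, -0.09 under mOSM and -0.10 under hlOSM, beside -0.02, -0.0038 and 0.07 for the 19 tested members with a promoter but no ERSE. Syvn1 was the sole ERSE member that was higher with either OSM, and Hsp90b1 with mOSM and Canx with hlOSM the sole ones that were lower. These medians are given as a description with no test.

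Other genes of the pathway were counted in the same way, and their shares are to be read against the shares of all genes tested, which were 5.47% higher and 4.44% lower under mLIF, 15.4% and 15.8% under mOSM, and 18.2% and 19.8% under hlOSM. Of 24 tested ATF4 targets outside the members, with amino acid supply genes, 3 were higher (12.5%) and 1 lower (4.17%) under mLIF, 13 higher (54.2%) and 3 lower (12.5%) under mOSM and 9 higher (37.5%) and 3 lower (12.5%) under hlOSM. Slc7a11, the cystine importer subunit, averaged 90.7 ± 24.8 under PBS, 143 ± 22.4 under mLIF, 186 ± 17.0 under mOSM and 205 ± 47.0 under hlOSM (SD, n = 3). Its log2 fold changes were 0.68 (SE 0.16, adjusted p = 0.0110), 1.06 (SE 0.16, adjusted p = 2.75e-05) and 1.19 (SE 0.16, adjusted p = 5.11e-06), past the threshold with all 3 cytokines. Ddit4, an inhibitor of mTORC1, had 32, 31 and 29 with PBS and 58 to 68 with the OSMs, log2 fold changes of 1.08 and 1.01, and 36, 41 and 44 with mLIF (0.38, adjusted p = 0.0584). Vldlr, a lipoprotein receptor, fell by 0.29 on the log2 scale with mLIF (adjusted p = 0.00446), by 0.70 with mOSM and by 0.76 with hlOSM. Cebpg, a bZIP factor, fell by 0.19 with mOSM and by 0.29 with hlOSM, and had -0.16 with mLIF (adjusted p = 0.0805). Psat1, of serine synthesis, averaged 128 ± 12.2 under PBS, 172 ± 7.55 under mLIF, 198 ± 13.4 under mOSM and 200 ± 37.1 under hlOSM (SD, n = 3). Its rise with mLIF was 0.43 on the log2 scale (adjusted p = 0.0115 in limma).

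Of 20 cytosolic aminoacyl-tRNA synthetases, which charge tRNAs with amino acids and include ATF4 targets, 2 were higher under mLIF (10%, against 5.47% of all genes), 7 under mOSM (35%, against 15.4%) and 8 under hlOSM (40%, against 18.2%), and none was lower in the 3 comparisons. Wars had 172, 176 and 163 with PBS and 207 to 242 with the OSMs, log2 fold changes of 0.41 and 0.39, and 0.32 with mLIF. Farsa had log2 fold changes of 0.36 and 0.39 with mOSM and hlOSM, and Farsb 0.31 with mLIF, all past the threshold. Farsb averaged 216 ± 9.61 with PBS, 268 ± 5.03 with mLIF, 263 ± 8.02 with mOSM and 278 ± 39.95 with hlOSM (SD, n = 3).

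Of 22 translocon, signal peptidase and signal sequence receptor genes, which bring new proteins into the ER, 1 was higher under mLIF (4.55%, against 5.47% of all genes), 9 under mOSM (40.9%, against 15.4%) and 11 under hlOSM (50%, against 18.2%), and none was lower. Ssr2 averaged 73.7 ± 11.7 with PBS, 109 ± 13.2 with mOSM and 120 ± 22.3 with hlOSM, log2 fold changes of 0.56 and 0.69, and Ssr4 had log2 fold changes of 0.56, 0.58 and 0.54 with mLIF, mOSM and hlOSM. Of 23 other folding enzymes, 1 was higher under mLIF (4.35%), 4 were higher (17.4%) and 1 lower (4.35%) under mOSM, and 6 were higher (26.1%) under hlOSM, so the shares higher with mLIF and mOSM were near those of all genes. Fkbp11, a proline isomerase of secretory cells, had 35, 33 and 30 under PBS, 52, 56 and 46 under mLIF, 78, 69 and 87 under mOSM and 77, 85 and 101 under hlOSM. The PBS, mLIF and OSM libraries lay apart, while mOSM and hlOSM overlapped. The log2 fold changes of Fkbp11 were 0.63 (adjusted p = 0.00389 in limma), 1.23 (adjusted p = 2.28e-07) and 1.39 (adjusted p = 2.56e-08). Mogs, the glucosidase that starts glycan trimming, had 0.60 and 0.52 with mOSM and hlOSM, and Tmx1, a membrane disulfide isomerase, fell by 0.18 with mOSM.

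Of 20 other ERAD genes, 1 was lower with mOSM (5%, against 15.8% of all genes), and 2 were higher (10%, against 18.2%) and 1 lower (5%, against 19.8%) with hlOSM, with none called for mLIF. These were Vcp, the segregase ATPase (-0.18 with mOSM and -0.15 with hlOSM), and the ubiquitin-conjugating enzyme genes Ube2j1 (0.30) and Ube2j2 (0.25), the last 2 with hlOSM. Of 17 other stress sensors, kinases and proteases, 1 was higher under mLIF (5.88%, against 5.47%), 3 higher (17.6%, against 15.4%) and 1 lower (5.88%, against 15.8%) under mOSM, and 4 higher (23.5%, against 18.2%) and 2 lower (11.8%, against 19.8%) under hlOSM, shares near or below those of all genes. Eif2ak4 (GCN2, the amino acid sensing eIF2alpha kinase) had log2 fold changes of 0.50 and 0.54 with mOSM and hlOSM, beside the uncalled 0.10 and 0.14 of its relative Eif2ak3. Mbtps2, a protease that cuts ATF6, had 0.28, 0.36 and 0.41 with mLIF, mOSM and hlOSM. Eif2ak2 (PKR) fell by 0.43 and 0.35 with the OSMs and Traf2, an adaptor of IRE1, fell by 0.26 with hlOSM.

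**Figure D4:**
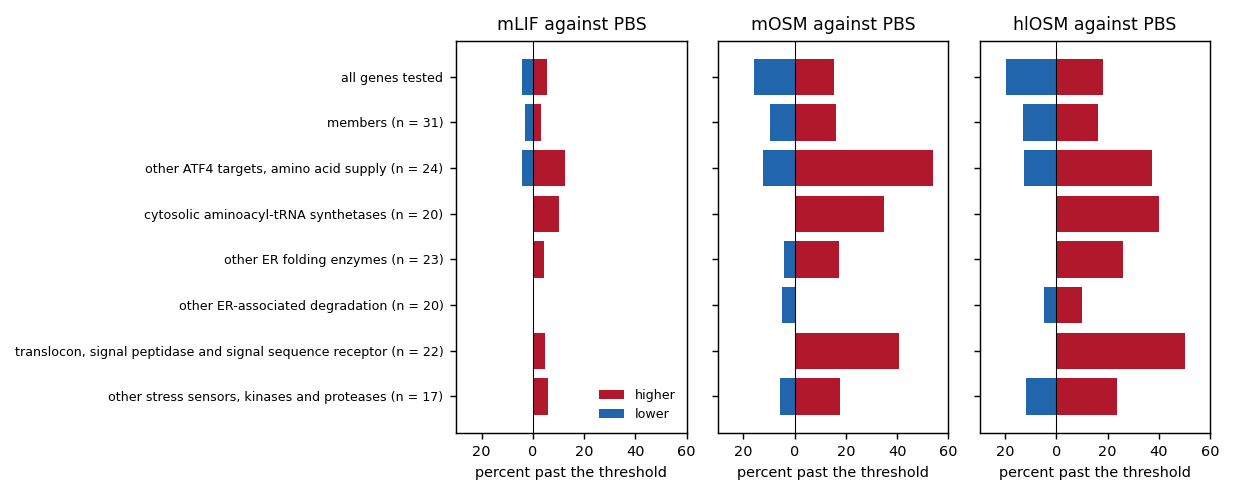
Percent of genes past an adjusted p of 0.05 against PBS for all genes tested, the 31 members and 6 other lists of the pathway, higher to the right and lower to the left. The members lie near all genes, with 16.1% higher with mOSM and with hlOSM beside 15.4% and 18.2%.

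Compared directly, the OSMs and mLIF differed in a few members. mOSM and mLIF differed in 3 of the 31 (9.68%, against 11.8% of all genes). Xbp1 was 1.27-fold higher with mOSM than with mLIF (log2 difference 0.34, SE 0.07, adjusted p = 0.00179), Sdf2l1 1.56-fold higher (0.64, SE 0.16, adjusted p = 0.00778) and Pdia4 1.18-fold higher (0.24, SE 0.06, adjusted p = 0.0108). Without mOSM replicate 3, Xbp1 alone passed. hlOSM and mLIF differed in 7 members (22.6%, against 16.6%). Xbp1 (0.36, adjusted p = 0.000936), Sdf2l1 (0.55, adjusted p = 0.0185), Manf (0.34, adjusted p = 0.0105), Pdia4 (0.21, adjusted p = 0.0211) and Hyou1 (0.17, adjusted p = 0.0311) were higher with hlOSM, and Ddit3 (-0.33, adjusted p = 0.0198) and Trib3 (-0.51, adjusted p = 0.00954) were lower. Without hlOSM replicate 2, Manf, Sdf2l1 and Xbp1 passed, and without mLIF replicate 3, Hyou1, Trib3 and Xbp1. Syvn1, called with each cytokine against PBS, did not pass between them.

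mOSM and hlOSM, the same protein but for the AB loop, gave no called difference in the list at the same dose and time. Of the 31 members, 0 passed (against 0.106% of all genes) and 0 had an unadjusted p under 0.05 in limma, with a lowest adjusted p of 0.759. The log2 differences ran from -0.16 for Trib3 to 0.25 for Sec61b. Their 95% intervals lay within 0.5 of 0 for 29 of the 31 and within 0.25 for 22, the 2 beyond 0.5 being those of Chac1 (-0.08 to 0.57) and Sec61b (-0.35 to 0.85). Xbp1 differed by 0.01 (95% interval -0.13 to 0.16) and Ddit3 by -0.14 (95% interval -0.35 to 0.06). A p that misses the threshold does not show that the proteins act alike, and the intervals give the sizes still possible.

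**Figure D5:**
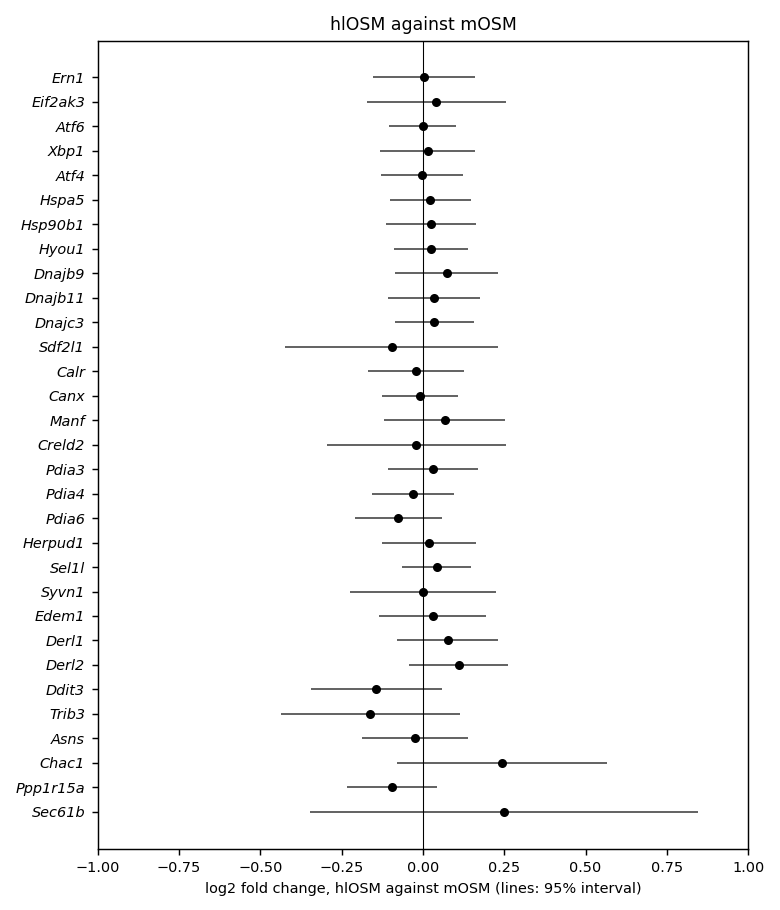
Log2 fold change of hlOSM against mOSM (points) with 95% intervals (lines) for the 31 tested genes. All points lie between -0.16 and 0.25, and the intervals of Sec61b and Chac1 reach beyond 0.5.

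Whether the hlOSM effect equalled the sum of the mLIF and mOSM effects was tested as an interaction, the hlOSM change minus the sum of the mLIF and mOSM changes. None of the 31 members passed (against 0.167% of all genes), and 3 had an unadjusted p under 0.05 in limma. These were Syvn1 (-0.38, 95% interval -0.70 to -0.06, adjusted p = 0.341), Asns (-0.24, interval -0.48 to -0.01, adjusted p = 0.406) and Hsp90b1 (0.22, interval 0.03 to 0.42, adjusted p = 0.363). The changes of each of these genes against PBS had the same sign with all 3 cytokines.

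The libraries of mOSM varied more than the others in these genes. The median coefficient of variation over the 31 members was 9.04% with mOSM, beside 4.34% with PBS, 4.74% with mLIF and 4.47% with hlOSM. Replicate 3 was most often the highest in every condition. With PBS it led in 48.4% of members (46.8% of all tested genes), with mLIF in 45.2% (41.8%) and with hlOSM in 45.2% (46.0%). The normalised total of mOSM replicate 3 was 2911891, beside 2764994 and 2760795 for mOSM replicates 1 and 2. mOSM replicate 3 was the highest of its condition in 17 of the 31 members (54.8%, beside 43.3% of all tested genes). Among them were Hspa5 (1397, against 1153 and 1204), Calr (859, against 676 and 722) and Hsp90b1 (1321, against 1080 and 1091). Without mOSM replicate 3, 7 members instead of 3 were lower with mOSM, with Calr (adjusted p = 0.0126 in limma), Canx (0.00411), Hspa5 (0.00512) and Ppp1r15a (0.00131) added. In that fit 3 instead of 5 were higher, those being Asns, Syvn1 and Xbp1. Xbp1, Syvn1, Asns, Ddit3, Trib3 and Hsp90b1 passed with and without it.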

How the data were processed

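Total RNA of the cardiomyocytes was made into stranded libraries and sequenced, 3 libraries for each of 4 conditions. By the study's methods and the submitters' processing notes, the authors aligned reads with STAR 2.7.7a to mm10. They counted reads per gene with featureCounts 1.6.5, leaving out reads that fell on several genes or aligned to several places. The deposited values are scores, normalised counts rounded to whole numbers by the authors; the normalisation and the strand setting of the counting are not given in the sources used here, so the depth is unknown and no counting interval is given. The labels and the methods give different cytokine concentrations, and the label's is printed.

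Values were analysed as log2(value + 1) with limma 3.58.1 (R 4.3.3), with an intensity trend in the variance, all 12 libraries in 1 fit, and genes at 10 or more in at least 3 libraries; fold changes of low genes are understated on this scale. P-values were two-sided and Benjamini-Hochberg adjusted over all 13184 genes, with a threshold of 0.05. A count model was not used on these values. All 32 members and, from each other list, the 2 largest rises and falls past the threshold with a mean of at least 50 were named. The members and lists were chosen with earlier results of these data known. Gene spans and exons came from GENCODE M21, in which 22676 of 22876 identifiers found (99.13%) had the span of the deposited table. The script was tested on simulated data.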

Additional observations from a re-analysis of the deposited data

How the results depend on the processing

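Other settings and the removal of each library in turn were tried, and no called result turned direction. With replicate number as a block, 0 members were higher and 1 lower with mLIF, 4 higher and 2 lower with mOSM, 2 higher (Syvn1 and Xbp1) and 3 lower with hlOSM, and 3 differed between mOSM and mLIF and 4 between hlOSM and mLIF. The limma calls of members against PBS not made under the block were Syvn1 with mLIF (adjusted p = 0.0602), and Pdia4 (0.0731) and Trib3 (0.0543) with mOSM. With hlOSM they were Sdf2l1 (0.0651), Manf (0.0820), Asns (0.0592) and Canx (0.0502). Of the other named genes, Mbtps2 with mLIF (0.0842), Tmx1 with mOSM (0.0646) and Vcp with hlOSM (0.0645) were also not called under the block. Under it, 10 in place of 13 other ATF4 targets and 7 in place of 9 translocon genes were higher with mOSM, and 9 in place of 11 translocon genes with hlOSM. Whether same-numbered libraries shared a preparation is not stated. Over 6626 genes their deviations gave correlations from -0.518 to 0.0221, and 0 of 18 pairs exceeded 0.1. Replicate number accounted for 5.86% of the spread inside the conditions. This share lay below the 25% expected of unpaired libraries, and replicate 3 was most often the highest library in every condition. The check therefore cannot decide whether the numbers pair the libraries. With a minimum change of 1.5-fold, 0 members were higher and 0 lower with mLIF, 0 higher and 1 lower with mOSM, 0 higher and 1 lower with hlOSM, and 1 differed between mOSM and mLIF and 0 between hlOSM and mLIF. At an adjusted p of 0.01, 0 were higher and 0 lower with mLIF, 2 higher and 1 lower with mOSM, 2 higher with hlOSM, and 2 differed between hlOSM and mLIF. With a filter at 50, 2 members were lower with mLIF (Ddit3 and Hsp90b1), with only the compared libraries 4 were (also Canx and Hspa5), and with trimmed-mean rescaling 5 differed between mOSM and mLIF. Leaving out a library gave 0 to 1 higher and 0 to 1 lower with mLIF, 3 to 5 higher and 1 to 7 lower with mOSM, 2 to 4 higher and 3 to 4 lower with hlOSM, 1 to 4 differing between mOSM and mLIF and 3 to 5 between hlOSM and mLIF. The count between hlOSM and mOSM and that for the interaction were 0 throughout. Over the 527 alternative values of 31 results for single members, 430 stayed on their side of the threshold, 21 passed it newly and 76 lost it. Without a filter, Derl3 was added to the genes higher with mOSM and hlOSM. The depth of each library could not be judged, and Sdf2l1, Chac1, Sec61b and Derl3 rest on low counts.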
